A study of Homo sapiens with 6 samples.

Results

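The interleukin-1 family was followed in T24, an established human bladder carcinoma cell line, through 8 genes that encode ligands, an antagonist and receptors. They are IL1A, IL1B, IL1RN, IL18, IL33, IL1R1, IL1RAP and IL1RL1, chosen by symbol, and all 8 were found among the 60612 gene identifiers of the count table. In the 3 libraries labelled FOXF1-activated, T24 cells carried a lentivirus with a short hairpin built from a small activating RNA, a duplex designed to raise transcription of the forkhead factor gene FOXF1 through its promoter. The 3 negative control libraries came from T24 cells, labelled wild type, with a lentivirus that carried a control hairpin. Puromycin selection is described for the stable cells. RNA was depleted of ribosomal RNA and sequenced from stranded libraries. Whether replicate libraries came from separate cultures or clones is not stated in the labels. The p-values therefore reflect no more than the variation among these libraries, and that variation may be technical.

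Library totals ran from 72500854 to 77198669 counts. FOXF1 itself was at 5.94, 4.78 and 5.10 CPM (depth-scaled counts, with the TMM factor of each library applied to its total) in the libraries labelled FOXF1-activated, against 7.51, 7.10 and 7.95 CPM in the negative control libraries, which goes against the label. Directions below therefore refer to the labels only. Of the epithelial markers, KRT7, KRT8 and KRT18 were at 188 CPM or more in every library and KRT19 was at 2.37 CPM or less, while EPCAM, GATA3 and UPK2 stayed at or below 1.07 CPM and UPK3A was at 0 in all 6. Of the 6 bladder line markers tested, none rose, and KRT7 (log2 fold change -1.41), KRT8 (-0.36) and EPCAM (-1.29) fell. Their part in the values of the family was not tested. Over all genes, 12351 of 20334 tested (60.7%) passed the test between the groups, 29.2% as higher and 31.5% as lower in the libraries labelled FOXF1-activated.

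Interleukin-1 alpha and beta, encoded by IL1A and IL1B, bind the receptor IL1R1, which then recruits the accessory protein IL1RAP. The assembled receptor signals through the adaptor MYD88 and IRAK kinases to NF-kB and MAP kinases. IL1RN encodes the antagonist, which occupies IL1R1 without recruiting IL1RAP. IL33 signals through IL1RL1, also called ST2, again with IL1RAP, and IL18 has a receptor pair of its own, IL18R1 and IL18RAP. Epithelial cells are known to store interleukin-1 alpha, IL-18 and IL-33 and to release them on damage.

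The interleukin-1 family shifted in several ways between the groups. The libraries labelled FOXF1-activated had more RNA of the ligand genes IL1A, IL1B and IL18, of the shared accessory chain gene IL1RAP and of the ST2 gene IL1RL1, and less RNA of the interleukin-1 receptor gene IL1R1. The fitted changes of the genes that passed ran from 3.71-fold lower for IL1R1 to 11.7-fold higher for IL1RL1. IL33 did not pass, and IL1RN was barely detected in either group. Of the 8 genes, 7 had enough counts for the test, and each of those 7 had at least 68 counts in every library of both groups. The quasi-likelihood test of edgeR, at a Benjamini-Hochberg adjusted p under 0.05, called 5 as higher and 1 as lower, beside 60.7% of all genes called, 29.2% as higher and 31.5% as lower. The median log2 fold change of the 7 was 1.20, beside -3.24e-05 over all genes tested. The 8 genes and the lists below were chosen with earlier results of these data known, which limits such comparisons. For 6 of the 7, every library of one group lay above every library of the other, as it did for 68.8% of all genes tested. In bulk RNA, fewer cells that express a gene and less RNA per cell cannot be told apart.

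**Figure D1:**
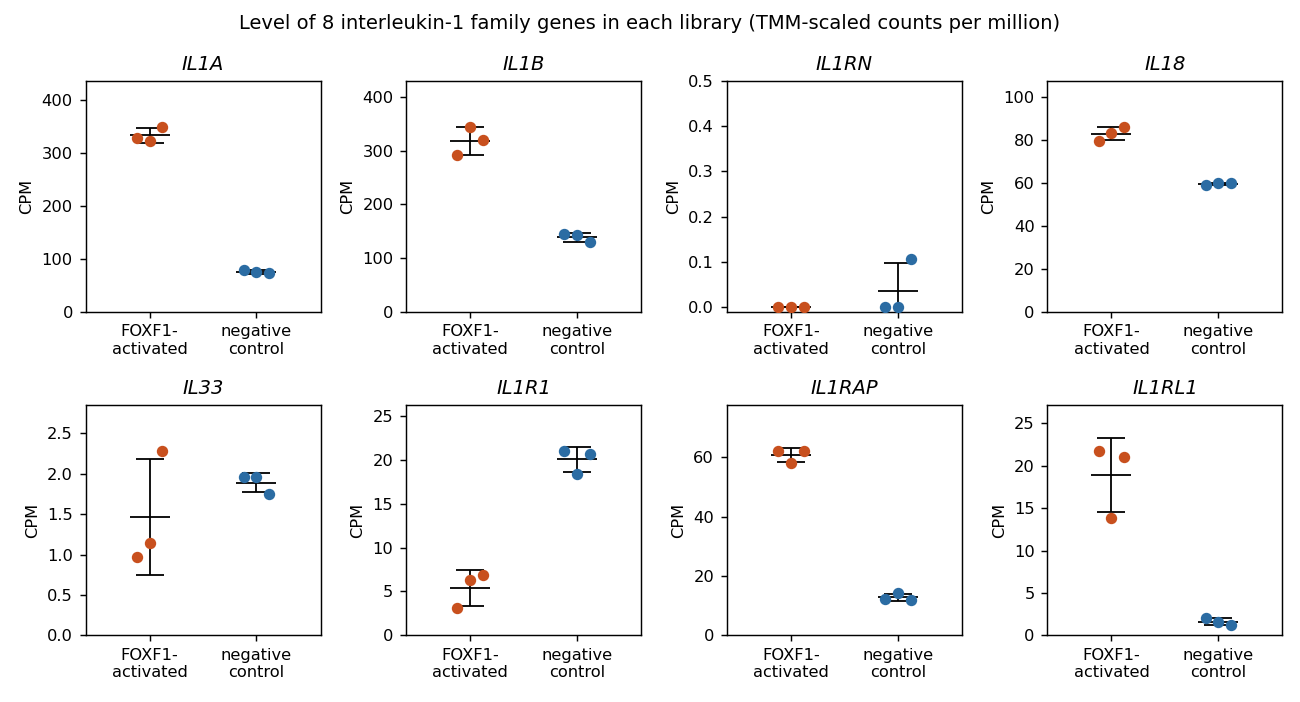
Each panel plots the TMM-scaled CPM of a gene in the 3 libraries labelled FOXF1-activated (orange) and the 3 negative control libraries (blue), with the mean and SD as black bars; every panel has its own axis, and only that of IL1RN starts just below 0. The groups are apart for IL1A, IL1B, IL18, IL1R1, IL1RAP and IL1RL1, overlap for IL33, and lie at or near 0 for IL1RN.

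Among the agonist ligands, IL1A (ENSG00000115008; GRCh38, GENCODE 29, chromosome 2, 112773915 to 112784590, minus strand) was at 328, 322 and 349 CPM in libraries labelled FOXF1-activated, against 79.6, 74.5 and 72.4 CPM in the negative control libraries. The lowest library labelled FOXF1-activated thus lay far above the highest control. The log2 fold change was 2.14 (standard error 0.06, edgeR adjusted p = 1.47e-08), higher than that of 94.5% of all genes tested. IL1B (ENSG00000125538; chromosome 2, 112829751 to 112836903, minus strand), the ligand that caspase-1 cuts to its active form, was at 291, 344 and 319 CPM in libraries labelled FOXF1-activated, against 144, 143 and 129 CPM in the negative control libraries. It rose by 1.20 on the log2 scale (standard error 0.07, edgeR adjusted p = 6.84e-07), a 2.29-fold change, again with no overlap between the groups. Interleukin-1 beta and interleukin-1 alpha act on the same receptor, and the fitted change of IL1A was the larger.

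IL18 (ENSG00000150782; chromosome 11, 112143251 to 112164117, minus strand), another substrate of caspase-1, was at 79.8, 83.2 and 86.0 CPM in libraries labelled FOXF1-activated, against 58.9, 60.05 and 59.8 CPM in the negative control libraries. This rise was small but larger than the spread between libraries, which was 3.13 CPM (SD) in the libraries labelled FOXF1-activated and 0.598 CPM in the controls. The log2 fold change was 0.48 (standard error 0.05, edgeR adjusted p = 3.48e-05), or 1.39-fold.

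IL33 (ENSG00000137033; chromosome 9, 6215786 to 6257983, plus strand), a nuclear cytokine and the ligand of ST2, was at 0.966, 1.14 and 2.28 CPM in libraries labelled FOXF1-activated, against 1.96, 1.95 and 1.75 CPM in the negative control libraries. FOXF1-activated replicates 1 and 2 lay below every control, and replicate 3 lay above them all. The log2 fold change was -0.36 with a standard error of 0.33 and did not pass (edgeR adjusted p = 0.370). Without FOXF1-activated replicate 3 it was -0.84 and passed (edgeR adjusted p = 0.0270). The same library was the highest of its group for markers of fibroblasts, connective tissue cells known to express IL33. All 7 fibroblast markers measured (COL1A1, COL1A2, COL3A1, DCN, LUM, PDGFRA and PDGFRB) were highest in replicate 3 within that group. For PDGFRB the margin was slight, at 4.09 CPM beside 4.02 CPM in replicate 1. Replicate 3 lay above every control for COL1A2, COL3A1, DCN and PDGFRA. It lay below every control for LUM and PDGFRB, and among the controls for COL1A1. Their summed level was 320, 313 and 499 CPM in libraries labelled FOXF1-activated, against 412, 451 and 464 CPM in the negative control libraries. None of the 7 was at 0 in any library. The 6 endothelial markers went the other way, with sums of 15.8, 15.4 and 6.45 CPM in FOXF1-activated replicates 1, 2 and 3. Within that group PECAM1, VWF, CDH5 and TEK were lowest in replicate 3, while KDR and ESAM were not. The part of either marker set in the IL33 value was not tested.

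**Figure D2:**
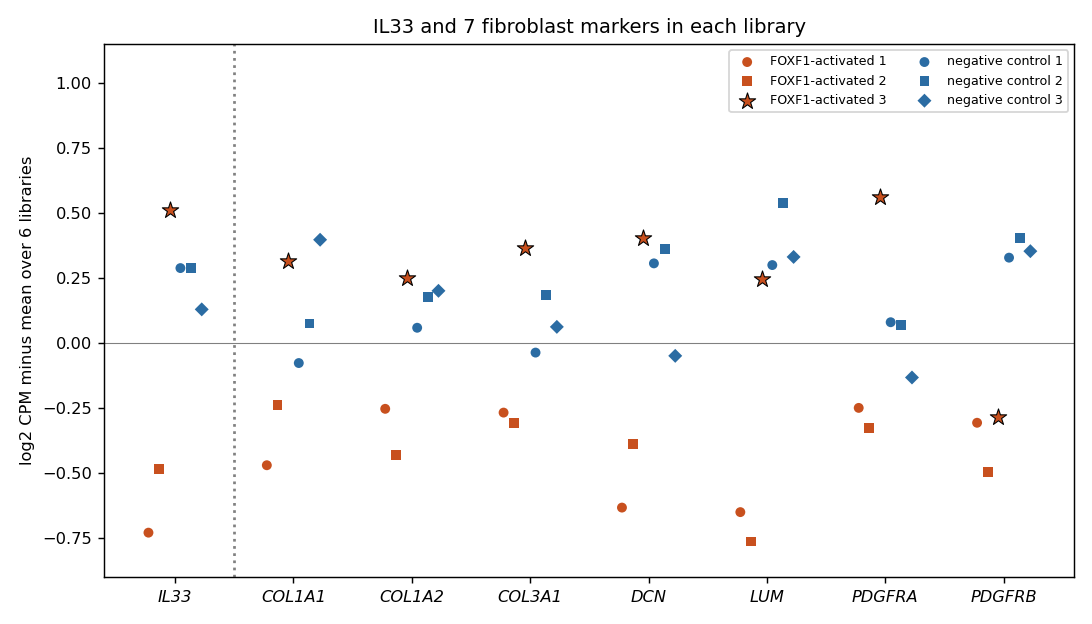
For IL33 and 7 fibroblast markers, each symbol is the log2 CPM of a library minus the mean of that gene over the 6 libraries (orange, libraries labelled FOXF1-activated; blue, negative control; star, FOXF1-activated replicate 3). In all 8 genes the star lies above the other orange symbols; for IL33 it stands at 2.28 CPM beside 0.966 and 1.14 CPM.

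IL1RN (ENSG00000136689; chromosome 2, 113107214 to 113134016, plus strand), the gene of the receptor antagonist, had 0 counts in all 3 libraries labelled FOXF1-activated. In the negative control libraries it had 0, 0 and 8 counts, so 5 of the 6 libraries showed none. A count of 0 allows up to 3 counts, or up to 0.0426 CPM in these libraries, for counting error only. Values of 4, 8 and 12 were over-represented in the count table, so the true limit may be higher. The gene was too low to test, and no ratio of agonist to antagonist could be formed. Its level in either group was not detectable at this depth or close to that limit.

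The receptor genes moved in opposite directions. IL1R1 (ENSG00000115594; chromosome 2, 102064544 to 102179874, plus strand), the signalling receptor of both interleukin-1 forms, was at 3.10, 6.28 and 6.82 CPM in libraries labelled FOXF1-activated, against 21.0, 18.4 and 20.7 CPM in the negative control libraries. All 3 libraries labelled FOXF1-activated were far below the controls, and replicate 1 was the lowest. The log2 fold change was -1.89 (standard error 0.25, edgeR adjusted p = 1.15e-04), and it was -1.61 without FOXF1-activated replicate 1.

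IL1RAP (ENSG00000196083; chromosome 3, 190514051 to 190659750, plus strand), the accessory chain that IL1R1 and ST2 share, was at 62.1, 58.2 and 61.9 CPM in libraries labelled FOXF1-activated, against 12.1, 14.3 and 12.1 CPM in the negative control libraries. The libraries of each group lay close together and far from the other group. IL1RAP rose by 2.24 on the log2 scale (standard error 0.09, edgeR adjusted p = 5.43e-08), a 4.73-fold change. The gene makes membrane and secreted forms, which gene counts do not separate.

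IL1RL1 (ENSG00000115602; chromosome 2, 102311502 to 102352037, plus strand), which encodes ST2 as a membrane receptor for IL-33 and as a soluble decoy, was at 21.8, 13.8 and 21.0 CPM in libraries labelled FOXF1-activated, against 2.07, 1.52 and 1.24 CPM in the negative control libraries. Replicate 2 was the lowest of the libraries labelled FOXF1-activated and was still well above every control. The log2 fold change of 3.55 (standard error 0.24, edgeR adjusted p = 1.16e-06) was the largest of the 8 genes and exceeded that of 97.8% of all genes tested. The counts do not tell the membrane form from the soluble form. Of markers of mast cells, which are known to carry ST2, KIT stayed at or below 0.574 CPM in every library and did not pass, and TPSAB1 and MS4A2 were at 0 in all 6. HDC had 6, 4 and 2 counts in libraries labelled FOXF1-activated, against 0 in each negative control library, and CPA3 had at most 4 counts in any library. The 5 mast cell markers summed to 0.226 to 0.601 CPM in libraries labelled FOXF1-activated and 0.321 to 0.573 CPM in the negative control libraries, and their part in the IL1RL1 value was not tested. From gene start to gene end, introns included, IL1RL1 overlaps IL18R1 over 40509 bases on the same strand, nearly its whole length. Overlap of their exons was not measured, and the count of IL1RL1 may include shared reads.

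Scaled by exon length, the order of the genes differed between the groups. In the libraries labelled FOXF1-activated, IL1A led with 157 ± 7 CPM per kilobase, followed by IL1B with 103 ± 9, IL18 with 31.6 ± 1.2, IL1RAP with 5.25 ± 0.19, IL1RL1 with 3.28 ± 0.76, IL1R1 with 0.762 ± 0.284 and IL33 with 0.450 ± 0.220 (SD, n = 3). Only the neighbours IL1R1 and IL33 overlapped in this order. In the negative control libraries, IL1B led with 44.8 ± 2.8 CPM per kilobase, followed by IL1A with 35.5 ± 1.7, IL18 with 22.7 ± 0.2, IL1R1 with 2.83 ± 0.20, IL1RAP with 1.11 ± 0.11, IL33 with 0.580 ± 0.036 and IL1RL1 with 0.281 ± 0.073 (SD, n = 3). No neighbours overlapped there. Which of IL1A and IL1B led in the libraries labelled FOXF1-activated depended on the length used. With the longest annotated transcript in place of all exons, IL1B was at 195 and IL1A at 157 CPM per kilobase.

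**Figure D3:**
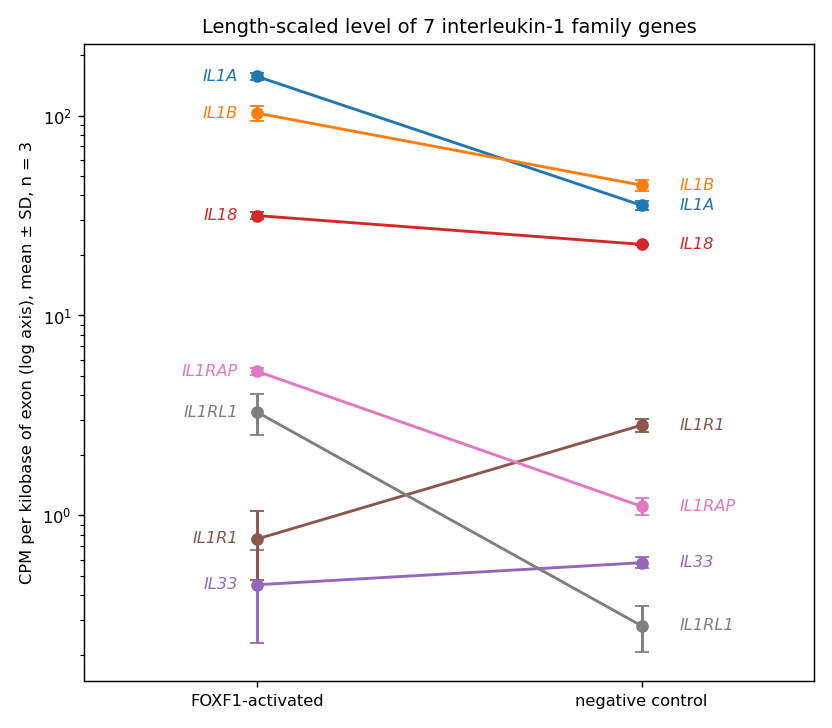
The plot gives the mean CPM per kilobase of exon (log axis) of 7 genes in the libraries labelled FOXF1-activated (left) and the negative control libraries (right), with SD over 3 libraries. IL1RN is left out because 5 of its 6 values are 0. The line of IL1R1 crosses those of IL1RAP and IL1RL1, that of IL1RL1 also crosses that of IL33, and that of IL1A crosses that of IL1B.

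Ratios of counts within a library need no scaling between libraries. IL1A over IL1B was 1.13, 0.936 and 1.09 in the libraries labelled FOXF1-activated, against 0.551, 0.520 and 0.562 in the negative control libraries. IL1RAP over IL1R1 was 20.1, 9.26 and 9.08 in the libraries labelled FOXF1-activated, against 0.578, 0.777 and 0.584 in the negative control libraries. This ratio was higher in every library labelled FOXF1-activated than in any control, and replicate 1 was the highest. IL1RL1 over IL18R1, whose reads can be shared because the genes overlap, was 6.36, 3.21 and 4.41 in the libraries labelled FOXF1-activated, against 1.23, 0.860 and 0.637 in the negative control libraries. The mean difference in the log2 ratio was 0.95 for IL1A over IL1B, 4.22 for IL1RAP over IL1R1 and 2.35 for IL1RL1 over IL18R1, without overlap between the groups. For each, the two-sided exact permutation p was 0.1, the smallest that 3 against 3 libraries allow, and 0.1 after adjustment over the 3 ratios computed. The ratios were chosen after the values were seen. Groups without overlap always give this p, so it adds nothing to the separation already described.

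The promoters of the genes that changed are shown because 4 of them rose together and 1 fell. Promoter windows of RefSeq (GRCh38.p14) were at hand for 7 of the 8 genes, in 15 windows, and not for IL18. Each line gives the 250 bases before the first start listed for the gene, 5′ to 3′ on the strand of the gene. Capitals mark matches, on either strand, to GGG, any 5 bases and CC (an NF-kB pattern), TGANTCA (an AP-1 pattern) or TGTTTAC (a forkhead pattern).
IL1A, chr2:112784494-112784743, minus strand: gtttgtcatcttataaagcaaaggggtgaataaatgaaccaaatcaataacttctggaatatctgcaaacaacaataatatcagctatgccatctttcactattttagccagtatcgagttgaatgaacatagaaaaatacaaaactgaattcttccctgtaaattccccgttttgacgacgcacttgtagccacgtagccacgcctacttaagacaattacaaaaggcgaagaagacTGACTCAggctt
IL1B, chr2:112836780-112837029, minus strand: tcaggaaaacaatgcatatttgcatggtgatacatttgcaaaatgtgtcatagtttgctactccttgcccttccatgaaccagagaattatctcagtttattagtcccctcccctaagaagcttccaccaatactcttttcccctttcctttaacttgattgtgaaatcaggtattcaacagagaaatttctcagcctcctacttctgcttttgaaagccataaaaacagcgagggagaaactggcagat
IL1RAP, chr3:190513835-190514084, plus strand: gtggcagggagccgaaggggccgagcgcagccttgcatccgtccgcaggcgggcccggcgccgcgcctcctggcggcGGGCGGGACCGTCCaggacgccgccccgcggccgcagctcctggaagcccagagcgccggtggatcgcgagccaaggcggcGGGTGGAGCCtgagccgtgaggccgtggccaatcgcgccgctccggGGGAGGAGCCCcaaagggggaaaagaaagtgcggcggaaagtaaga
IL1RL1, chr2:102337007-102337256, plus strand: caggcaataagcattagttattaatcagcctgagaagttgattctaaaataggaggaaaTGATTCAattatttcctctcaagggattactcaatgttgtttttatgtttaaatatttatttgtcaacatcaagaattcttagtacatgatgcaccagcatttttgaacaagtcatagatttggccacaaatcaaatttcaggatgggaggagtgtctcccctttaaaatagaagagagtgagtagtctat
IL1R1, chr2:102104354-102104603, plus strand: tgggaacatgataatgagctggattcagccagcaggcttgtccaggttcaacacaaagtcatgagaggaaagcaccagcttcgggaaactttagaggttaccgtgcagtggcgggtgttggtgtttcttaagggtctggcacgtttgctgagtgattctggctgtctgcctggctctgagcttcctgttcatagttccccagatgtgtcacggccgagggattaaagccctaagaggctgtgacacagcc

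In these lines, the AP-1 pattern was found 12 to 6 bases before the start of IL1A. It was also found 191 to 185 bases before the IL1RL1 start listed first, which lies inside the annotated gene. The other IL1RL1 window, at the annotated start of the gene, held 0 matches to it. The AP-1 pattern occurred in 6.57% of all 35116 windows of the same length. A window of IL1RN, not printed and of a gene barely detected in either group, held it as well. IL1RAP held 5 matches to the NF-kB pattern, some of which overlap, but 54.4% of all windows held at least 1. Windows not printed held it as well, among them 1 of the 4 windows of IL1R1, the gene that fell. Each of these 2 patterns was in 4 of the 15 windows of the family. The forkhead pattern was in 0 of the 15 windows of the family and in 2.98% of all windows. A match is a description of letters, and a window without one says nothing about the factor.

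IL1A, IL1B and IL1RN sit in one cluster on chromosome 2, and IL1R1 and IL1RL1 in another, and genes of both directions stood side by side in each. Within 500 kb of the start of IL1A, 13 other genes were tested, of which 4 rose and 8 fell, beside 60.7% of all genes called. IL1A and IL1B, 52.3 kb apart, rose, whereas CKAP2L, a mitotic spindle gene that starts 19.9 kb to the other side of IL1A, fell by 1.65 on the log2 scale to 17.9 ± 1.7 CPM, against 56.2 ± 5.5 CPM in the negative control libraries (SD, n = 3). SLC20A1, a phosphate transporter gene in the same window, fell by 1.63 on the log2 scale. PAX8, a transcription factor gene near the window's edge, changed by -1.79, but an antisense gene overlaps it and its value is uncertain. Besides IL1B, the neighbours that rose were POLR1B, an RNA polymerase I subunit gene (0.41), RGPD8 (1.39), whose near-identical gene copies make it uncertain, and VINAC1P (3.80), a pseudogene at 0.203 ± 0.057 CPM in libraries labelled FOXF1-activated and 0.013 ± 0.023 CPM in the negative control libraries (SD, n = 3). Within 500 kb of the start of IL1R1, 6 other genes were tested, of which 4 rose and 1 fell. There IL1R1 fell, while IL1RL1, IL18R1 and IL18RAP, 247 to 354 kb away, rose. The annotated spans of IL1RL1 and IL18R1, introns included, overlap over 40509 bases on the same strand. The authors' counting could share reads where exons overlap, which was not measured, so the values of both are uncertain.

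**Figure D4:**
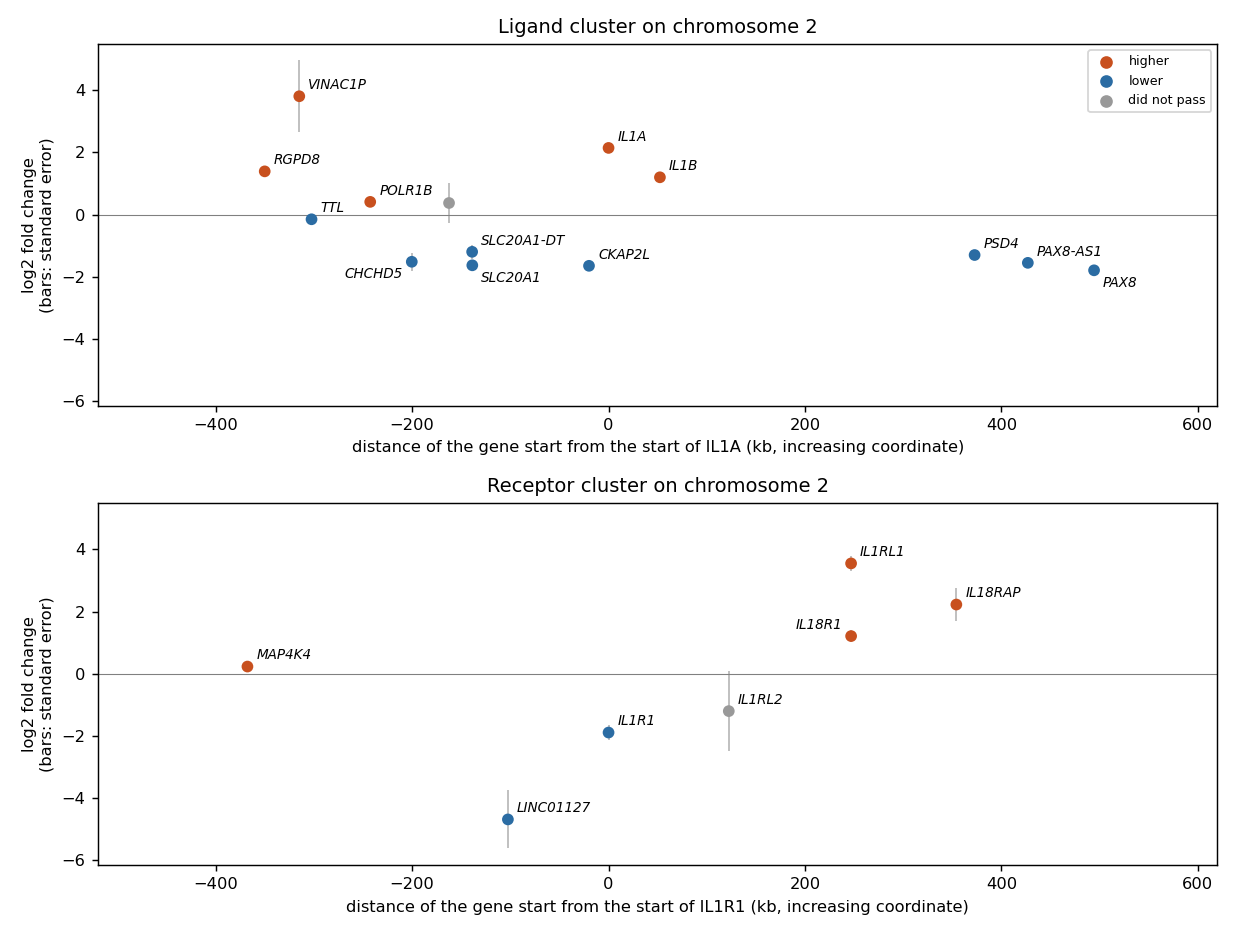
For genes tested within 500 kb of the start of IL1A (top) and of IL1R1 (bottom), the log2 fold change, libraries labelled FOXF1-activated over negative control, is plotted against distance in kb, with standard errors (orange, higher; blue, lower; grey, did not pass). IL1A at 2.14 and IL1B at 1.20 stand among neighbours of both directions, and IL1R1 at -1.89 stands opposite IL1RL1 at 3.55.

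Of 14 other ligand and receptor genes of the family, 6 had enough counts to test. IL36A, IL36B, IL36G, IL36RN, IL37, IL1F10, IL1R2 and IL1RAPL2 did not, with at most 19 counts in any library. Among the 6, 4 rose and 1 fell, beside 29.2% higher and 31.5% lower over all genes, with a median log2 fold change of 0.80. The brain-expressed receptor relative IL1RAPL1 was at 25.3 ± 1.6 CPM in libraries labelled FOXF1-activated and 5.89 ± 0.70 CPM in the negative control libraries (SD, n = 3), a log2 change of 2.10 (edgeR adjusted p = 3.67e-07). SIGIRR, which encodes an inhibitory receptor of the family, fell to 5.37 ± 0.55 CPM in libraries labelled FOXF1-activated, against 13.1 ± 0.9 CPM in the negative control libraries (log2 fold change -1.29, edgeR adjusted p = 1.55e-05). The IL-18 receptor genes IL18R1 (1.21, edgeR adjusted p = 4.96e-04) and IL18RAP (2.22, edgeR adjusted p = 0.00512) rose at low levels, IL18RAP staying below 1 CPM in every library. IL18BP, which encodes a secreted inhibitor of IL-18, rose by 0.38 (edgeR adjusted p = 0.0121). IL1RL2, the IL-36 receptor gene, was at -1.20 with a standard error of 1.28 and did not pass (edgeR adjusted p = 0.446).

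Genes that act just below the receptors went both ways. Of 18 tested, 8 rose and 4 fell, a called share of 66.7% that is near the 60.7% of all genes, with a median log2 fold change of 0.21. The fallers were MYD88, the adaptor of the interleukin-1 receptor, IRAK3, an inhibitory IRAK kinase relative, TAB1, a partner of the kinase TAK1, and PELI3, a Pellino ubiquitin ligase. MYD88 was at 21.7 ± 1.4 CPM in libraries labelled FOXF1-activated and 55.6 ± 3.5 CPM in the negative control libraries (SD, n = 3), a log2 change of -1.35 (edgeR adjusted p = 4.92e-07). IRAK3 changed by -1.86, TAB1 by -1.64 and PELI3 by -2.76. PELI1, another Pellino ligase gene, rose by 1.48 to 43.4 ± 1.6 CPM, against 15.6 ± 2.4 CPM in the negative control libraries, and IKBKG, the regulatory subunit of the IkB kinase, by 0.81. The kinase genes IRAK1 (0.05, edgeR adjusted p = 0.729), IRAK2 (-0.01, edgeR adjusted p = 0.855) and MAP3K7, which encodes TAK1 (-0.05, edgeR adjusted p = 0.462), did not pass.

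Genes listed as processing the ligands, letting them out of the cell or regulating these steps mostly fell. Of 17 listed, 15 were tested, 4 rose and 11 fell, beside 29.2% higher and 31.5% lower over all genes. The median log2 fold change was -0.92. CASP1, the protease that matures interleukin-1 beta and IL-18, was at 8.79 ± 0.58 CPM in libraries labelled FOXF1-activated and 36.4 ± 3.9 CPM in the negative control libraries (SD, n = 3), a log2 change of -2.05 (edgeR adjusted p = 2.32e-07). S100A13, a copper-binding protein linked to interleukin-1 alpha export, fell by 1.37 on the log2 scale, CARD8, an inflammasome sensor, by 1.74, and CAPN2, a calpain of the protease class that cuts interleukin-1 alpha, by 0.76. CASP4, the caspase that senses bacterial lipopolysaccharide, rose to 450 ± 11 CPM in libraries labelled FOXF1-activated, against 118 ± 4 CPM in the negative control libraries (SD, n = 3; log2 fold change 1.93, edgeR adjusted p = 1.43e-08). The inflammasome sensor NLRP3 rose by 1.75 to 18.3 ± 1.3 CPM, against 5.42 ± 0.18 CPM in the negative control libraries. PYCARD, from the same list, fell by 5.08 on the log2 scale (edgeR adjusted p = 1.42e-04). It was at 0.258 ± 0.275 CPM in libraries labelled FOXF1-activated, against 8.89 ± 1.66 CPM in the negative control libraries (SD, n = 3). Replicate 2 labelled FOXF1-activated had 0 counts of it. CASP5 had 0 counts in all 6 libraries and AIM2 at most 8 in any.

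Of 25 genes known to be induced by interleukin-1 in many cell types, 24 were matched by symbol and 23 tested. Of these, 16 rose and 2 fell, beside 29.2% higher and 31.5% lower over all genes, with a median log2 fold change of 1.21. The list was chosen with earlier results of these data known, which limits this comparison. The chemokine genes CXCL3 (4.13, edgeR adjusted p = 2.74e-08) and CXCL1 (2.39, edgeR adjusted p = 9.24e-08) rose. NFKBIZ, a nuclear IkB protein, was at 238 ± 33 CPM in libraries labelled FOXF1-activated and 48.8 ± 4.4 CPM in the negative control libraries (SD, n = 3; log2 fold change 2.28), and TNFAIP3, the feedback inhibitor A20, rose by 1.75. ICAM1, an adhesion receptor, rose by 1.21. TNFAIP2, known as a gene induced by tumour necrosis factor, fell by 1.39 on the log2 scale (edgeR adjusted p = 9.44e-08), and TNIP1, a partner of A20, by 0.82. NFKBIA, the inhibitor IkB alpha (0.12, edgeR adjusted p = 0.301), the ribonuclease gene ZC3H12A (0.18, edgeR adjusted p = 0.132) and the collagenase gene MMP1 (1.05, edgeR adjusted p = 0.115) did not pass.

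**Figure D5:**
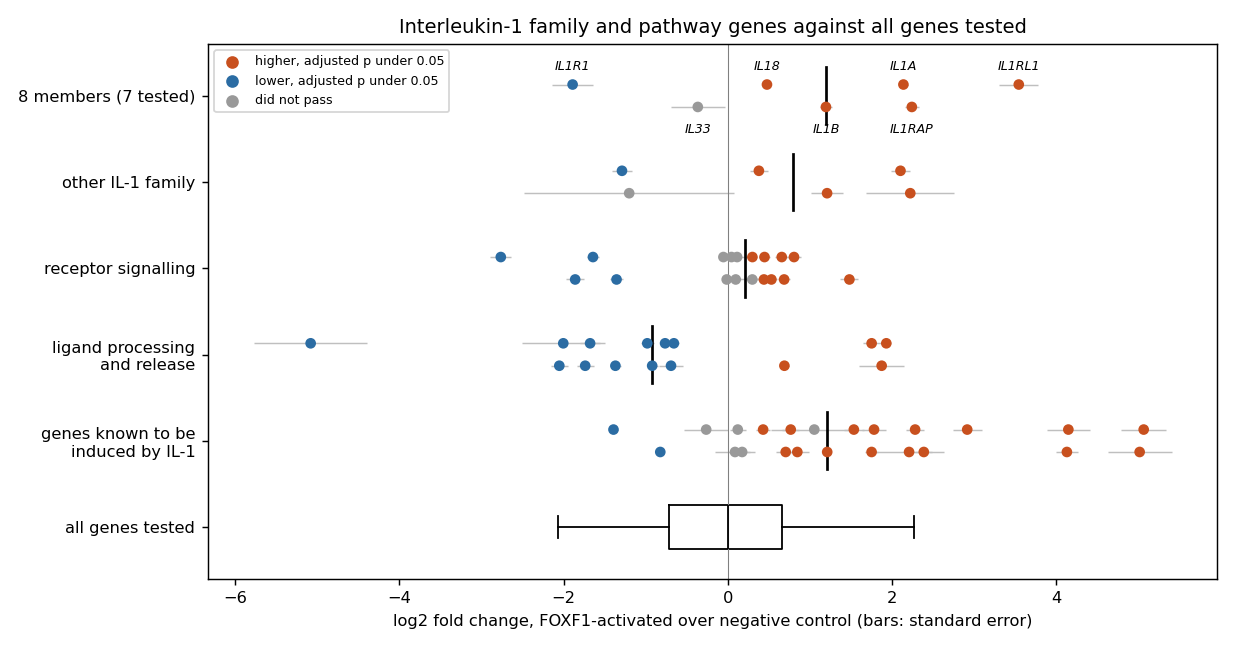
Each point is the log2 fold change of a tested gene, libraries labelled FOXF1-activated over negative control, with its standard error (orange, higher; blue, lower; grey, did not pass); black ticks are list medians, and the box gives the quartiles and the 5th to 95th percentiles of all 20334 genes. The medians are 1.20 for the 7 tested members, 0.80 for other family genes, 0.21 for receptor signalling, -0.92 for ligand processing and 1.21 for genes known to be induced by IL-1.

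Some other genes had almost the same profile over the 6 libraries. Likeness was the root mean square difference of centred log2 CPM among 10947 genes with a mean of at least 5 CPM. For IL1A the closest were PALM2AKAP2 (0.052), RBM15 (0.066) and DNAJB11 (0.067), and for IL1B they were UCHL3 (0.038), GALNT2 (0.046) and PGM2 (0.053). For IL18 the closest were PNRC1, ADK and ATP6V0A2 (0.024 to 0.027). IL33 was closest to DCN, which encodes decorin and is among the fibroblast markers above (0.10), then to COL14A1, a collagen gene (0.11), and GTF2H4 (0.14). For IL1RAP the closest were TNXB (0.048), the receptor relative IL1RAPL1 (0.077) and SLC25A25 (0.081). IL1R1 was closest to HCN3 (0.062), APOBEC3F (0.19) and CTBP1-DT (0.19), and IL1RL1 to ABCC2 (0.17), AOC2 (0.19) and PLCXD2 (0.20). These distances describe 6 libraries in which most genes changed, and each gene named was picked as among the nearest of 10947.

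Markers of other cell types were given beside the family because immune and stromal cells also express it. The 10 myeloid markers summed to 18.5 to 23.8 CPM in libraries labelled FOXF1-activated and 29.4 to 35.2 CPM in the negative control libraries. Of the 9 tested, 2 were higher and 2 lower, a called share of 44.4%, beside 60.7% over all genes. TYROBP, a defining myeloid adaptor gene, was at 0 in all 6 libraries, while CD14 (log2 fold change -2.73) and CD68 (-2.84) fell and PTPRC (0.38) and CD163 (2.47) rose. The 6 endothelial markers summed to 6.45 to 15.8 CPM in libraries labelled FOXF1-activated and 6.49 to 10.6 CPM in the negative control libraries. Of these, VWF rose (3.54) and the other 5 did not pass, a called share of 16.7%. Of the 7 fibroblast markers, LUM (-0.71) and PDGFRB (-0.72) fell and 5 did not pass, a called share of 28.6%. Both of these shares are also below the 60.7% over all genes. The part of these markers in the values of the family was not tested.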

How the data were processed

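RNA was sequenced from 6 T24 libraries, grouped by title into 3 labelled FOXF1-activated and 3 negative control. The authors deposited whole-number counts per Ensembl gene. Cutadapt 1.9, TopHat2 2.0.4 and build GRCh38 are named in the submitters' processing notes. Not given in the sources used here are the counter, its handling of strand and the gene annotation. Values of 4, 8 and 12 were 2.36, 1.94 and 1.60 times as frequent as neighbouring values, so depth may be overstated and low counts are less certain than they look.

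Genes were kept by filterByExpr (minimum count 10, minimum total 15). After TMM scaling, FOXF1-activated and control libraries entered edgeR 4.0.16 (R 4.3.3, quasi-likelihood test, no covariates) at a Benjamini-Hochberg adjusted p under 0.05 over all genes tested. The standard error is the log2 fold change divided by the square root of F. Symbols matched 60401 identifiers. Positions and exon lengths come from GENCODE 29, which held 58394. On simulated data with known changes, the share of false calls was above the threshold's nominal share. Far fewer genes were changed in that simulation than were called here, so its share need not hold for these calls.

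All members were named, with FOXF1. In each of 4 pathway lists the rule named the 6 genes with the smallest p and up to 3 with the highest level among those that did not pass. It also named the 3 genes most like each member, and tested neighbours within 500 kb. A few others (among them TNIP1, PYCARD, CASP5 and AIM2, and marker genes) were named after their values were seen. Members and lists were chosen with earlier results of these data known. A planned ratio of agonists to IL1RN was not computed, since IL1RN had 0 counts in 5 libraries. No library repeated another: chi-square per degree of freedom between replicates was 19.9 to 33.2. Alternatives are other scalings, filters and tests, a replicate block, counts divided by 4, and leaving out each library.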

Additional observations from a re-analysis of the deposited data

How the results depend on the processing

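Under 15 alternatives each, the log2 fold changes of IL1A (2.06 to 2.24), IL1B (1.12 to 1.30), IL18 (0.40 to 0.58), IL1R1 (-2.10 to -1.61), IL1RAP (2.17 to 2.34) and IL1RL1 (3.38 to 3.76) kept their direction and passed the test each time, with adjusted p up to 0.00100. FOXF1 stayed lower (-0.60 to -0.41). IL33 ran from -0.84 to -0.14 when a library was left out and passed only without FOXF1-activated replicate 3, so 6 to 7 members were called. Over all genes 11014 to 12831 were called. The balance of higher and lower calls turned with scaling, with 6639 higher and 5743 lower under upper-quartile scaling and 5406 higher and 6929 lower with library totals only. For the pathway lists the counts ran from 4 to 6, 12 to 13, 15 to 16 and 18 to 19 in the order of the report. The median over all genes moved by at most 0.10 on the log2 scale, under upper-quartile scaling. With the replicate number as a block, 6 members and 11790 genes were called. Same-numbered libraries did not deviate together (correlations -0.02, -0.001 and -0.02, and 0 of 6 libraries correlated best with their own number). These correlations were taken after centring within each group, and they cannot show whether same-numbered libraries were handled together. The alternatives planned for the ratio of agonists to IL1RN were not run. IL1RN and the 8 untested family genes had too few counts to test. Of these, IL36A, IL37, IL1F10 and IL1RAPL2 had 0 counts in all 6 libraries.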
